A study of Mus musculus with 9 samples.

Results

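Marker-positive low-UMI barcodes were droplet barcodes of the testis that held little RNA and yet carried transcripts of spermatids. They were chosen by a rule over all 9 single-cell libraries: over 1000 detected genes, under 10% of unique molecular identifiers (UMIs, 1 for each captured transcript) from mitochondrial mt- genes, fewer than 2000 UMIs, and a UMI of at least 3 of 6 genes, Tomm20l, 1700001F09Rik, Dbil5, Catsperz, Pbp2 and Tekt4. The rule found 5282 barcodes among the 45132 that passed the gene and mt- limits, 11.7%. A droplet barcode can hold a cell, pieces of a cell, or only RNA that was free in the cell suspension, so the barcodes are named here by the rule.

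The study asked what the pausing factor NELF-B and the RNA-binding protein TDP-43 do in male germ cells. Whole testes of C57BL/6 mice (backcrossed to the C57BL/6 J substrain, per the study's methods) at postnatal day 24 were digested with collagenase and trypsin, and each mouse gave 1 droplet 3′ library, 4 of them from controls, 2 from NELF-B cKO and 3 from TDP-43 cKO animals. A cKO mouse carried 1 floxed and 1 null allele of Nelfb or Tardbp and the Stra8-iCre transgene, which acts in the germ line from early spermatogonia (SG), so the somatic cells of a cKO testis keep 1 intact floxed allele. The controls were littermate or non-littermate mice, and neither their alleles nor litters, extraction days or batches are named in the labels. The libraries held 119203347 to 159407373 UMIs each, and replicates are separate mice.

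Round spermatids (RS) are the haploid cells that follow the meiotic spermatocytes (SC). They build the acrosome, the secretory vesicle that a sperm needs to enter the egg, and the flagellum, and later replace histones with transition proteins and protamines. Enzymatic digestion of a tissue releases RNA into the medium, and each droplet, with or without a cell, can take up some of it. Dbil5 belongs to the acyl-CoA-binding proteins, Catsperz is a subunit of the CatSper calcium channel of the sperm tail, Tekt4 is a tektin of axonemal microtubules, Tomm20l resembles a receptor of mitochondrial protein import and Pbp2 is a testis member of the phosphatidylethanolamine-binding proteins.

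On GRCm38, the 6 genes of the rule are protein-coding and lie on 6 chromosomes: Tomm20l at chr12:71111428-71123221 on the plus strand, 1700001F09Rik at chr14:43342383-43347811 on the minus strand, Dbil5 at chr11:76217608-76218666 on the plus strand, Catsperz at chr19:6922371-6925380 on the minus strand, Pbp2 at chr6:135309127-135310405 on the minus strand and Tekt4 at chr17:25454615-25476602 on the plus strand.

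Most of the barcodes came from the control mice. Control replicates 1, 2, 3 and 4 held 2343, 689, 899 and 498 of them, NELF-B cKO replicates 1 and 2 held 831 and 4, and TDP-43 cKO replicates 1, 2 and 3 held 0, 15 and 3. Control replicate 1 alone gave 44.4% of all members. The 5 mice with at least 20 members, the 4 controls and NELF-B cKO replicate 1, held 5260 of the 5282, and all levels below are from those 5 mice unless another is named.

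As a share of the barcodes past the gene and mt- limits, members were 30.7% in control replicate 1 (95% exact binomial interval 29.7 to 31.8), 8.15% in control replicate 2, 17.5% in control replicate 3, 10.2% in control replicate 4 and 14.7% in NELF-B cKO replicate 1. They were 0.134% in NELF-B cKO replicate 2, 0.496% in TDP-43 cKO replicate 2 and 0.0869% in TDP-43 cKO replicate 3. In TDP-43 cKO replicate 1 they were 0 of 3947 barcodes, with a 95% exact binomial interval up to 0.0934%. These intervals and limits cover counting error only. All 3 TDP-43 cKO mice were below all 4 controls, while 1 NELF-B cKO mouse lay within the controls and the other below them.

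Controls had a mean share of 16.7% ± 10.2 (SD, n = 4), NELF-B cKO mice one of 7.44% ± 10.3 (SD, n = 2), and for TDP-43 cKO it was 0.194% ± 0.265 (SD, n = 3). TDP-43 cKO differed from control by -16.5 percentage points (2-sided exact permutation test, p = 0.0571, 0.114 after Benjamini-Hochberg adjustment over the 2 comparisons), and 0.0571 is the smallest p that 3 mice against 4 can give. NELF-B cKO differed by -9.22 percentage points (2-sided exact permutation test, p = 0.4, adjusted 0.4), where the smallest p is 0.133. Neither design could reach 0.05. The UMI level of the plateau, a crowd of barcodes described next, was lower in all 3 TDP-43 cKO mice than in all 4 controls, while 1 of the 2 NELF-B cKO mice lay within the controls.

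Every library had a plateau, a crowd of barcodes of nearly the same UMI total, taken here as the fullest histogram bin and the 2 bins on each side. It held 44986 to 64459 barcodes in 8 of the mice and 20632 in control replicate 2. The median UMI total of plateau barcodes was 984, 1066, 691 and 582 in control replicates 1 to 4, 677 and 458 in NELF-B cKO replicates 1 and 2, and 137, 413 and 302 in TDP-43 cKO replicates 1 to 3. The 4 mice with 0 to 15 members had the 4 lowest plateaus, all at 458 UMIs or fewer, and the 5 other mice had plateaus at 582 or more.

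**Figure D1:**
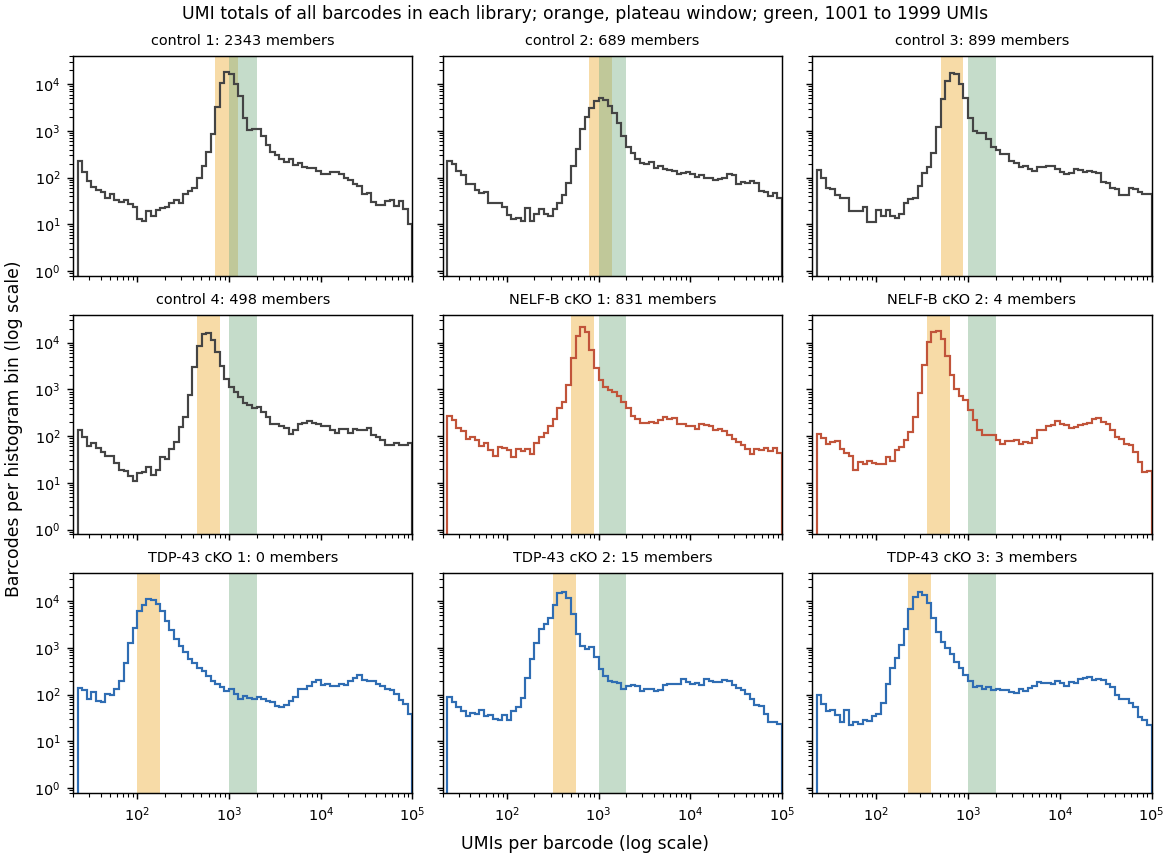
Barcodes per histogram bin (log scale) against UMIs per barcode (log scale) in the 9 libraries; the orange band is the plateau window and the green band is the range over 1000 and under 2000 UMIs in which members lie. In control replicates 1 and 2 the bands overlap, and in the TDP-43 cKO mice the plateau, at a median of 137 to 413 UMIs, ends below the green band.

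The marker rule was also met by the plateau. Of the plateau barcodes of control replicate 1, 22866 of 58937 had a UMI of at least 3 of the 6 genes, 38.8%, at about 1000 UMIs each. The share was 5.13%, 11.7% and 5.54% in control replicates 2, 3 and 4, 11.2% in NELF-B cKO replicate 1, 0.0528% in NELF-B cKO replicate 2, and 0, 0.137% and 0.0370% in TDP-43 cKO replicates 1, 2 and 3. The 9 mice stood in the same order by this share as by their share of members, which rests on the same 6 genes. The part of the plateau's level in the difference between genotypes was not tested and, with 1 library a mouse, cannot be told apart from fewer spermatids giving less free RNA.

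**Figure D2:**
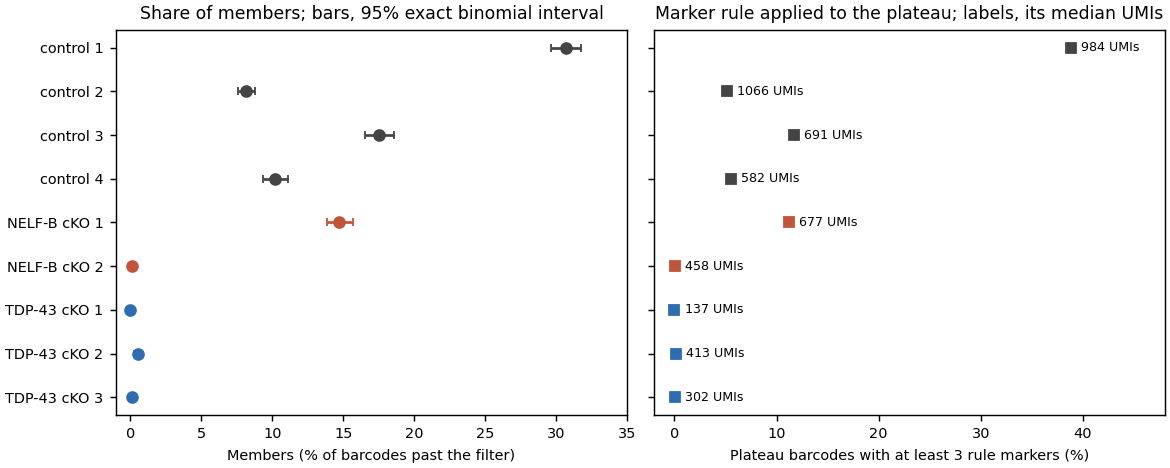
Left, members as a percentage of barcodes past the gene and mt- limits, with 95% exact binomial intervals; right, percentage of plateau barcodes with at least 3 of the 6 genes, labelled with the median UMIs of the plateau. Control replicate 1 is highest in both panels, at 30.7% and 38.8%, and the 4 mice with few members are under 1% in both.

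Depth was then held equal. Barcodes over 1000 and under 2000 UMIs were thinned to 1000 UMIs at random and scored again. Among those with over 1000 genes, the share with at least 3 of the 6 genes was 41.8% in control replicate 1, 5.27% in control replicate 2, 28.4% in control replicate 3, 25% in control replicate 4 and 26.7% in NELF-B cKO replicate 1. Among barcodes of the same UMI range with 1000 genes or fewer, which the gene limit removes, it was 40.1%, 4.4%, 24.4%, 18.5% and 24.7% in the same order. No mt- limit was set on these. Their mt- genes stood at 251, 438, 810, 1097 and 892 UMIs per 10,000, against 89.5 to 204 in members. Barcodes on either side of the gene limit thus both met the marker rule. The side over 1000 genes did so somewhat more often in each of the 5 mice, and by most in control replicate 4. The 2 sides differ in mt- content as well as in genes. On both sides control replicate 1 was highest and control replicate 2 lowest of the 5. In NELF-B cKO replicate 2 and TDP-43 cKO replicates 1 to 3 the share over 1000 genes was 1.57%, 0%, 2.33% and 0.909%, of 127, 80, 172 and 110 barcodes. At 1000 genes or fewer it was 1.15%, 0.210%, 3.22% and 0.824%.

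Members had few genes over the gene limit. Their median was 1636 UMIs, 1115 genes and 0.644% mt- UMIs, and the fewest UMIs were 1239. Exactly 3 of the 6 genes were found in 3116 members, 4 in 1682, 5 in 447 and all 6 in 37. The values that chose them fall off without a gap: 3615 barcodes under 2000 UMIs had 2 of the 6 genes, 646 members lay within 100 UMIs below the UMI limit beside 604 marker-positive barcodes within 100 UMIs above it, and 1319 members had fewer than 50 genes over the gene limit beside 2113 otherwise alike barcodes that missed it by fewer than 50. Of the 5282 member barcodes, 46 (0.871%) also passed the gene and mt- limits in another library.

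The 6 genes chose the members, so their levels are described and not tested. Summed over the 6, members held 41.4, 27.1, 37.0, 37.9 and 37.2 UMIs per 10,000 in control replicates 1 to 4 and NELF-B cKO replicate 1. Barcodes of 1 to 100 UMIs of the same mice, set beside members to weigh free RNA, had 41.5, 23.4, 31.6, 30.7 and 28.5, and the plateau had 34.2, 11.2, 24.4, 19.9 and 24.6. Most barcodes of the first window held few UMIs: in control replicate 1, 1797594 barcodes of 1 to 50 UMIs held 3974943 in all. Whether that window holds free RNA was not tested. Members were 1.00 to 1.31 times the barcodes of 1 to 100 UMIs and 1.21 to 2.43 times the plateau. Members, and not the other 2 classes, had been chosen for these genes, so the ratios were set in part by the rule. Barcodes under 2000 UMIs that missed the marker rule had 22.9, 10.4, 17.95, 15.6 and 17.9.

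Catsperz was the most frequent of the 6, with a UMI in 91.4% to 97.6% of members. Its level in members was 1686, 943, 1502, 1670 and 1475 UMIs per 1000000 (CPM) in the 5 mice, beside 1442, 525, 993, 843 and 1035 CPM in the plateau. Dbil5 was in 79.1% to 86.8% of members at 658 to 1027 CPM, against 257 to 898 CPM in the plateau and 625 to 1294 CPM at 1 to 100 UMIs. Among all barcodes of at least 5000 UMIs past the limits, whatever their cell type, 72.4% to 90.3% held a Catsperz UMI in these 5 mice, 16.6% in NELF-B cKO replicate 2 and, for TDP-43 cKO, 3.65% to 30.7%. A UMI of Catsperz was thus common in deep barcodes of the mice with many members and uncommon in those with few.

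Tomm20l (247 to 342 CPM), Pbp2 (469 to 691 CPM) and Tekt4 (331 to 410 CPM) were in 34.1% to 77.3% of members. 1700001F09Rik stood apart: it held 134, 80.4, 79.8 and 115 CPM in members of control replicates 1, 3 and 4 and NELF-B cKO replicate 1 and was at 0 in members of control replicate 2. All barcodes of control replicate 2 together held 0 UMIs of it among 143567371, against 12008, 6282 and 8077 in control replicates 1, 3 and 4. The rule therefore had 5 usable genes in that mouse.

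The whole profile of members was set against other barcodes of the same mouse, without mt- genes and the 6 genes of the rule. The measure is the share of UMIs that would have to move to other genes for 2 summed profiles to match, to which counting error adds. Against the plateau it was 5.12%, 6.78%, 11.3%, 19.8% and 10.6% in control replicates 1 to 4 and NELF-B cKO replicate 1. Against marker-positive barcodes of at least 4000 UMIs (chosen by the same 3 of 6 genes after thinning to 1500 UMIs) it was 14.4%, 26.1%, 16.9%, 22.5% and 15.6%. In all 5 mice members were nearer to the plateau than to these deepest marker-positive barcodes. The latter numbered 262 to 427 a mouse, against 20632 to 64459 in the plateau. Counting error therefore added more to their values, by an amount that was not measured. Against barcodes of 1 to 100 UMIs the values were 8.999%, 18.3%, 11.03%, 14.9% and 13.0%, nearer than the plateau in control replicates 3 and 4 and farther in the other 3 mice. Against all marker-positive barcodes of at least 2000 UMIs the values were 5.60%, 21.2%, 9.68%, 13.9% and 11.4%, so that in control replicates 3 and 4, where the plateau lay lowest of the controls, members were nearer to these than to the plateau. Nearest in 4 of the 5 mice, at 4.50% to 13.8%, were barcodes of the same UMI range with 1000 genes or fewer, and in control replicate 2 these stood at 6.79%. Barcodes past the limits and under 2000 UMIs that missed the marker rule stood at 4.92%, 5.40%, 8.79%, 15.1% and 9.78%, nearer than the plateau in each mouse and nearest of all classes in control replicate 2.

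Across the 3529 to 4425 genes of at least 50 CPM in members, Pearson's r of log2 CPM between members and plateau was 0.991, 0.979, 0.958, 0.910 and 0.968, and between members and the marker-positive barcodes of at least 4000 UMIs 0.921, 0.811, 0.870, 0.820 and 0.899. These are descriptions across genes, which are not independent, and counting error lowers r more for the few deepest barcodes. Of 1420 genes with at least 100 CPM in members of every control mouse, 1372 (96.6%) were within 2-fold of the plateau in all 4 controls, by mouse 100%, 100%, 99.8% and 96.6%. Within 2-fold of the barcodes of 1 to 100 UMIs were 99.2%, 98.4%, 98.7% and 98.0% of them, and within 2-fold of the marker-positive barcodes of at least 4000 UMIs 98.2%, 87.8%, 94.6% and 87.2%. Most of these genes were therefore within 2-fold of every class.

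Between mice, members of control replicate 2 stood apart. Members of control replicate 2 differed from those of the other 4 mice by 27.6% to 29.4% of UMIs, while members of those 4 mice differed among themselves by 6.17% to 9.57%. Plateaus showed the same division, 18.6% to 30.6% against 7.03% to 15.9%. Marker-positive barcodes of at least 4000 UMIs did not: control replicate 2 differed from the other mice by 10.5% to 16.3%, and those differed among themselves by 9.95% to 13.1%. Members of control replicate 2 were thus far nearer to the plateau of their own mouse (6.78%) than to members of any other mouse. Members of control replicate 1 were also nearer to their own plateau (5.12%) than to the nearest other members (6.17%, control replicate 3), and in the other 3 mice it was the reverse. Members of control replicate 3 stood 6.17% from those of control replicate 1 and 11.3% from their own plateau, members of control replicate 4 stood 7.28% from those of control replicate 3 and 19.8% from their own plateau, and members of NELF-B cKO replicate 1 stood 8.01% from those of control replicate 3 and 10.6% from their own plateau. The profiles thus did not settle the label of a cell type in the same way in every mouse, and members are called by the rule throughout.

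**Figure D3:**
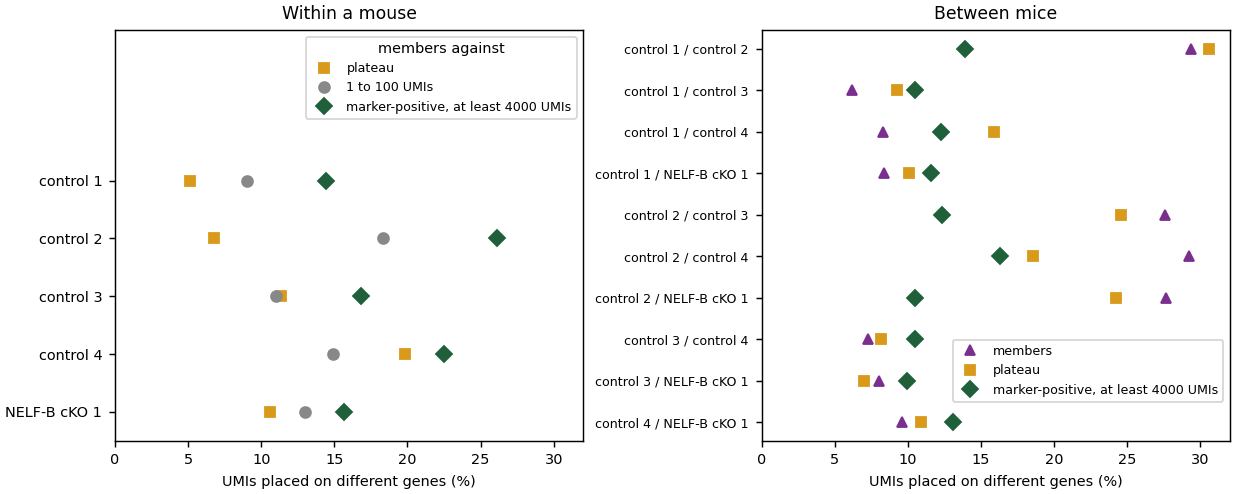
Percentage of UMIs that 2 summed profiles place on different genes, left between members and 3 other classes of the same mouse, right between 2 mice for members, plateau and marker-positive barcodes of at least 4000 UMIs. Of the 3 classes plotted (barcodes of 1 to 100 UMIs, plateau, and marker-positive barcodes of at least 4000 UMIs), the plateau lies nearest in control replicates 1 and 2 and NELF-B cKO replicate 1 and barcodes of 1 to 100 UMIs in control replicates 3 and 4, and the members of control replicate 2 stand 27.6% to 29.4% from those of the other mice.

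The 15 genes of highest median CPM over the controls were Gm42418, Ldhc, Meig1, Ubb, Fabp9, Rbakdn, Lyar, Cox8c, Hsp90aa1, Rsph1, Gstm5, Rpl13, Ropn1l, Gkap1 and Serf1. Ldhc, the testis lactate dehydrogenase, held 8943, 4594, 8153, 9006 and 7430 CPM in members of the 5 mice and 8314, 3888, 6340, 5558 and 5903 CPM in their plateaus. Meig1, which is needed for the spermatid's manchette, held 7378, 3744, 6416, 6946 and 6561 CPM against 6843, 3347, 5025, 4332 and 5155. For each, members exceeded the plateau in all 5 mice, by 1.08 to 1.62 times in the controls.

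Gm42418 went the other way. It is annotated as a long noncoding RNA that overlaps the ribosomal RNA repeat, and its reads are known to come largely from ribosomal RNA. Members held 12789, 67574, 16429, 18675 and 16823 CPM in the 5 mice, and their plateaus 22100, 83343, 37933, 68871 and 32927 CPM. In marker-positive barcodes of at least 2000 UMIs, thinned to 1500, it stood at 9371, 17526, 6586, 6405 and 6829 CPM. Members therefore lay between the plateau and the deeper barcodes in every mouse, and control replicate 2 was highest in both. By their medians over the controls, Camk1d, Lars2, Gm19951, Gphn and AY036118 lay likewise between the plateau and the marker-positive barcodes of at least 4000 UMIs. Gm42418 also led the genes by ratio of members to barcodes of 1 to 100 UMIs, at a median of 3.25 times over the controls, before Cmss1 (2.85), Atxn7l3b (2.65), Ankar (2.27), Cdk8 (2.18) and Camk1d (2.12). Of these, Cmss1, Cdk8 and Camk1d were below the plateau in every control.

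Genes of the spermatid programme were weighed by lists. Over the 18 acrosome genes, members held 53.1, 30.3, 47.7, 47.6 and 47.5 UMIs per 10,000 in control replicates 1 to 4 and NELF-B cKO replicate 1, the plateau 52.5, 24.2, 40.9, 35.0 and 40.3, and the marker-positive barcodes of at least 4000 UMIs 65.2, 58.3, 69.3, 82.1 and 62.7. Members were 1.01 to 1.36 times the plateau and 0.52 to 0.81 times these deepest barcodes. Marker-positive barcodes of at least 2000 UMIs held 54.9, 52.0, 57.4, 66.8 and 58.2, nearly the level of members in control replicate 1. Over the 20 genes of flagellum and axoneme the ratios were 1.01 to 1.32 and 0.61 to 0.80. The 8 haploid transcription regulators, among them Crem and Tbpl1, were at 12.8 to 13.9 UMIs per 10,000 in members and 10.8 to 13.5 in the plateau.

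Chromatin condensation genes, the transition proteins and protamines that mark the latest spermatids, were below the plateau in 4 of the 5 mice. Members held 17.9, 3.21, 16.5, 7.58 and 19.4 UMIs per 10,000 over the 8 genes, the plateau 20.2, 1.68, 23.8, 15.7 and 28.5, and barcodes of 1 to 100 UMIs 26.2, 2.74, 28.0, 31.8 and 33.7. Control replicate 2 was far below the other mice in every class. The 6 Tssk kinases of spermatids followed the same order, at 0.70 to 0.86 times the plateau in those 4 mice and 1.64 times in control replicate 2.

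Of the germ cell lists, testis energy metabolism had the highest median ratio to the plateau, 1.21. Over its 10 genes, among them Ldhc, Cox8c and Cox6b2, members held 160, 95.6, 150, 158 and 142 UMIs per 10,000 against 152, 86.5, 122, 108 and 118 in the plateau, a ratio of 1.06 to 1.46. By a ratio chosen after the values were seen, the genes of at least 100 CPM highest over the plateau in all 4 controls were led by Nubp2, Mesp1 and Dmrtb1, at medians of 1.56, 1.53 and 1.52 times. Dmrtb1, a regulator of the entry into meiosis, held 761, 378, 821, 1039 and 572 CPM in members and 618, 309, 457, 456 and 389 CPM in the plateau. For these genes the largest excess was in control replicate 4, whose plateau lay lowest of the controls.

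RNA of other cells was present in members. The Sertoli cell list (10 genes, among them Sox9, Clu, Cst9, Cst12 and Ctsl), of the somatic cells that nurse the germ line, summed to 16.8, 11.1, 17.3, 19.2 and 8.60 UMIs per 10,000 in members, 16.1, 12.6, 28.2, 38.9 and 9.34 in the plateau, and 1.91 to 6.72 in the marker-positive barcodes of at least 4000 UMIs. All 10 genes had a UMI in members of every control, and 1 of the 10 was at 0 in NELF-B cKO replicate 1. Members held 2.50 to 6.06 times the Sertoli level of the latter. Marker-positive barcodes of at least 2000 UMIs held more of it, 13.35, 6.24, 8.66, 8.96 and 4.38, but less than members in every mouse. Members were below the plateau in 4 of 5 mice, by most in control replicate 4 (0.493 times) and control replicate 3 (0.614 times).

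SG genes summed to 3.02 to 5.57 UMIs per 10,000 in members and 3.76 to 5.92 in the plateau, and were lower in members in each of the 5 mice. Genes of pachytene and diplotene SC were even, at 54.6 to 64.5 against 55.9 to 65.0. The lists of Leydig, of stromal, myoid and endothelial, of immune and of red blood cells each summed to at most 1.51 UMIs per 10,000 in members of every mouse, with up to 5 genes of a list at 0. At 1 to 100 UMIs these 4 lists and the mt- genes stood higher than in members in every mouse, with mt- genes at 355 to 605 UMIs per 10,000 against 89.5 to 204. The mt- share was limited by the rule, and so is only described.

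**Figure D4:**
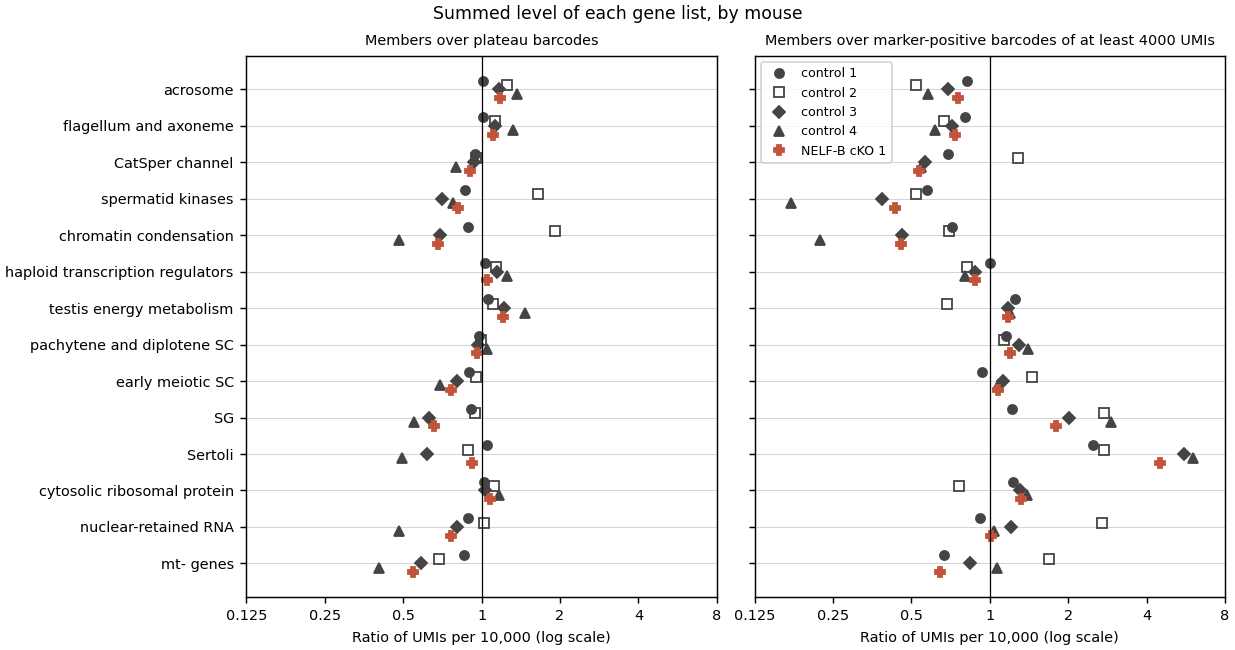
Ratio of summed UMIs per 10,000 (log scale) of each gene list in members over plateau barcodes (left) and over marker-positive barcodes of at least 4000 UMIs (right), 1 symbol a mouse. Sertoli genes are 2.50 to 6.06 times higher than in the deeper barcodes and 0.493 to 1.05 times the plateau, and acrosome genes are 0.52 to 0.81 times the deeper barcodes and 1.01 to 1.36 times the plateau.

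How members varied among themselves was read after thinning each to 1000 UMIs. Over the acrosome genes the ratio of variance to mean was 1.09 to 1.28 in members of the 5 mice, and 1.39 to 1.76 in marker-positive barcodes of at least 2000 UMIs chosen at the same 1000 UMIs. Over flagellum and axoneme it was 1.05 to 1.23 in members and 1.41 to 2.14 in the deeper barcodes. Barcodes of the same UMI range with 1000 genes or fewer had 1.05 to 1.57 for acrosome and 1.08 to 1.73 for flagellum, above members in 4 of 5 mice for each list and overlapping the deeper barcodes. These barcodes, unlike members, had no mt- limit. The 6 kinases and the CatSper genes gave 0.981 to 1.29 in members.

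Other lists had higher ratios. The ratio also rises with the level of a list, so lists of unlike level cannot be ranked by it. Ribosomal protein genes had means of 45.2 to 77.4 UMIs per 1000 in members, and acrosome genes of 3.02 to 5.33. The 83 cytosolic ribosomal protein genes had ratios of 2.04 to 2.71 in members, and nuclear-retained RNAs 1.15 to 2.28 in the controls and 5.26 in NELF-B cKO replicate 1, where 1 member held 49 of its 1000 UMIs from them. For chromatin condensation genes the ratio was 2.56, 1.83, 6.93, 1.34 and 5.29 in members, and the member with most of them held 41, 6, 82, 7 and 76 UMIs among its 1000. In the deeper barcodes the ratio was 2.73 to 38.2. In control replicates 1 and 3 and NELF-B cKO replicate 1, at least 1 member was thus far richer in protamine and transition protein RNA than the mean. The means over members there were 1.83, 1.66 and 1.97 UMIs per 1000. The number of such members was not read, and 1 of them can raise the ratio. Among barcodes of 1000 genes or fewer, the highest held 219 such UMIs in 1000. Sertoli genes had ratios of 1.55 to 3.92 in members.

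**Figure D5:**
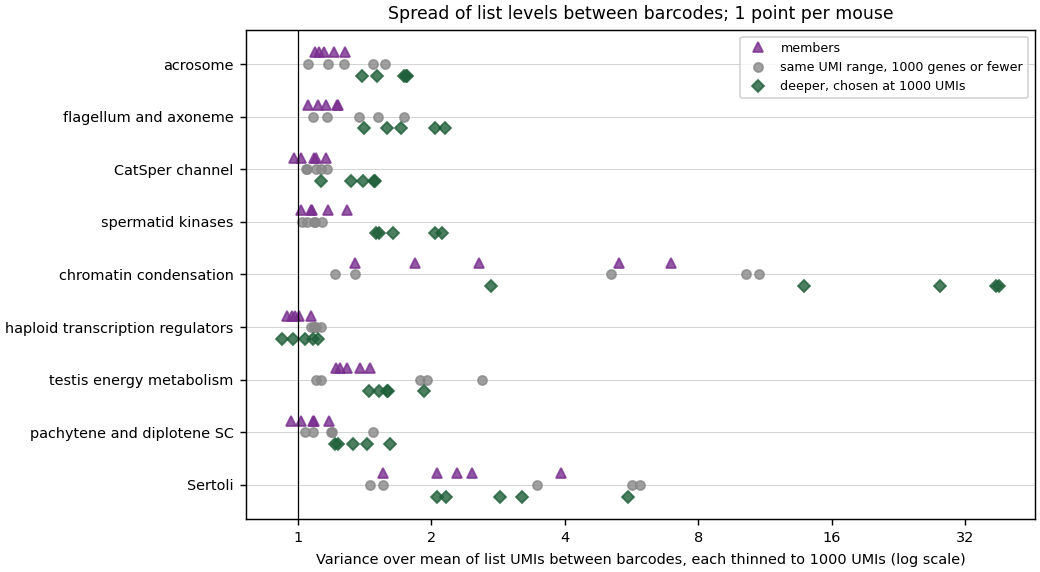
Variance over mean (log scale) of the UMIs of each gene list between barcodes thinned to 1000 UMIs, 1 point for each of 5 mice, for members, for barcodes of the same UMI range with 1000 genes or fewer (no mt- limit), and for marker-positive barcodes of at least 2000 UMIs. Members lie between 0.943 and 1.45 for all lists plotted but chromatin condensation and Sertoli, and the deeper barcodes reach 38.2 for chromatin condensation.

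UMIs from the X and Y chromosomes, which are silenced in pachytene SC and expressed in part again in RS, were read as a share of all UMIs. The X share was 73.8, 79.6, 63.6, 56.2 and 65.8 UMIs per 10,000 in members and 81.2, 78.4, 96.6, 111 and 87.3 in the plateau. The Y share was 1.74 to 4.00 in members and 2.78 to 4.94 in the plateau. Both shares were lower in members than in the plateau in 4 of the 5 mice and slightly higher in control replicate 2. Marker-positive barcodes of at least 4000 UMIs held a Y share of 7.05, 4.74, 5.06, 7.52 and 5.72, above members in each mouse. Their X share was 99.1, 58.5, 77.3, 95.5 and 80.1, above members in all mice but control replicate 2.

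Gene by gene, members were tested against marker-positive barcodes of the same mouse with at least 2000 UMIs, thinned to 1500 UMIs to bring the depths near each other. The rule used the UMIs, genes and mt- share of a barcode and the 6 marker genes. Its gene limit was set on whole barcodes and not after thinning, and it bears on the levels compared here. Members had to pass it with fewer than 2000 UMIs, while the deeper barcodes passed it at full depth. The limit thus favoured members whose UMIs were spread over many genes. Its part in the calls below was not tested. Counts were summed per mouse and class and compared by edgeR's quasi-likelihood test over the 5 mice with mouse as a block. Calls needed a Benjamini-Hochberg adjusted p under 0.01 and at least a 2-fold change. Of 11285 genes, 11 were higher in members (0.0975% of those tested) and 284 lower (2.52%), 2.61% in either direction. Without the mouse block 0 were higher and 2 lower. Leaving out control replicates 1, 2, 3 and 4 in turn gave 87, 3, 4 and 4 higher and 474, 233, 116 and 182 lower, and leaving out NELF-B cKO replicate 1 gave 3 and 52. Against the deeper barcodes of at least 4000 UMIs, 338 of 10036 genes were higher (3.37%) and 963 lower (9.6%), 13% in either direction. These comparisons share the members and many deeper barcodes, and 280 genes were called in both, 94.9% of the first calls and 21.5% of the second.

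The higher genes named were Gm42418, Gm19951, Camk1d, Lars2 and Marcksl1. Gm42418 had a log2 fold change of 1.33 ± 0.24 (SE, adjusted p = 0.00309, edgeR) and Camk1d of 1.14 ± 0.15 (SE, adjusted p = 0.000429, edgeR), each higher in members of 5 of 5 mice. The call of Gm42418 was lost without control replicate 3 (adjusted p = 0.0324, edgeR), control replicate 4 (0.0246) or NELF-B cKO replicate 1 (0.0489), that of Marcksl1 without any 1 mouse but control replicate 1, and that of Lars2 without control replicate 2 or NELF-B cKO replicate 1. In all 11 the mean level in the plateau was above that in members, and in 170 of the 284 lower genes, 59.9%, it was below. In all 11 and all 284 the plateau lay on the same side of the deeper barcodes as members did. Camk1d, a calcium-dependent kinase, held 716, 1384, 889, 974 and 1071 CPM in members, 526, 502, 396, 387 and 451 CPM in the deeper barcodes and 1194, 1685, 2069, 3527 and 2193 CPM in the plateau.

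The lower genes of largest change were 4930405D01Rik, 4933436I20Rik, Gm41225, 1700020G17Rik, 4930554G24Rik, Cnbd1, Gm27211, Zfp804b, Gm48051 and Iqcm, with log2 fold changes of -2.30 to -1.89 and adjusted p of 0.000124 to 0.000527 (edgeR). Gm48051 held 46.8, 14.7, 75.7, 8.22 and 43.3 CPM in members, 149, 76.2, 215, 106 and 175 CPM in the deeper barcodes, and 17.2, 13.3, 20.2, 14.8 and 14.3 CPM in the plateau. Members were below the deeper barcodes in each of the 5 mice. Of the 284 lower genes 65.5% were protein-coding, against 87.0% of all tested, and 33.8% were long noncoding RNAs, against 12.9%.

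Among the spermatid lists, calls against the deeper barcodes were few and all downward. Acrv1, Spaca4, Spaca7, Zp3r and Eqtn, 5 of 18 acrosome genes, were lower, as were the kinases Tssk3 and Tssk4 (2 of 6) and Catsper3 (1 of 9), beside the 2.52% of all genes called lower. Acrv1, a protein of the acrosomal matrix, held 75.5, 40.4, 79.0, 44.6 and 62.1 CPM in members and had a log2 fold change of -1.27 ± 0.19 (SE, adjusted p = 0.000712, edgeR). No gene of the flagellum, chromatin condensation or haploid regulator lists was called. The list medians were -0.68 for acrosome, -0.84 for kinases, -0.52 for flagellum, -0.64 for chromatin condensation, -0.32 for CatSper, -0.16 for haploid regulators and 0.02 for testis energy metabolism, beside 0.01 over all genes.

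Against barcodes of at least 4000 UMIs the order was sharper. Of the acrosome genes 10 of 18 were lower, of the kinases 4 of 6, of flagellum and axoneme 8 of 20, of the CatSper genes 3 of 9 and of chromatin condensation 2 of 7 tested, beside the 9.6% of all genes. Testis energy metabolism had 2 of 10 lower and the haploid regulators 1 of 8, with list medians of 0.11 and -0.21. Abundant genes of the same lists did not pass: Spink2, an inhibitor of acrosomal protease, was at 1396, 803, 1373, 1531 and 1564 CPM in members and had a log2 fold change of -0.28 ± 0.21 (SE, adjusted p = 0.326, edgeR), and Dkkl1 and Ropn1l were at -0.16 and -0.27.

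Against all deeper barcodes, no gene of the Sertoli list (9 tested, median log2 fold change 0.85), of the SG list (7 tested, median 0.73) or of the list of pachytene and diplotene SC (14 tested, median 0.28) was called in either direction. All 9 Sertoli genes tested were higher in members than in the barcodes of at least 4000 UMIs, beside the 3.37% of all genes, with a median log2 fold change of 2.14 over the list and 0.03 over all genes. Clu, a secreted chaperone, held 325, 282, 373, 398 and 155 CPM in members, 352, 315, 615, 924 and 232 CPM in the plateau and 47.8 to 124.7 CPM in those deeper barcodes (log2 fold change 1.90 ± 0.20 SE, adjusted p = 1.7e-05, edgeR). Sox9, the regulator of Sertoli cell fate, changed by 2.70 ± 0.47 (SE, adjusted p = 0.000551, edgeR). Other somatic lists differed from this. The immune genes Lyz2, Cd74 and C1qa were lower in members (3 of 4 tested, list median -3.52), as was the stromal gene Dcn (the 1 tested, -3.27). Immune levels were low and uneven between mice. The immune list summed to 3.28, 0.0684, 2.37, 0.0781 and 0.995 UMIs per 10,000 in those deeper barcodes and to 0.0587 to 0.275 in members. Members stood at 0.039 times the deeper level in control replicate 1 but at 1.21 times in control replicate 2. The Leydig list had a median of 0.52 with 0 of 2 tested called, and of the early meiotic SC genes 1 of 8 was lower. Among SG genes Dazl and Id4 were higher (2 of 5 tested), and among SC genes Piwil1, Hist1h1t and Tex101 (3 of 13).

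For 311 of the 338 higher genes, 92.0%, the mean level in the plateau was above that in members. For 293 of the 963 lower genes, 30.4%, it was below that in members. In all 338 and all 963 the plateau lay on the same side of these deeper barcodes as members did. The same shares over all genes tested are not given here.

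In the cKO mice the targeted gene was read first. Nelfb held 4.33 CPM in members of NELF-B cKO replicate 1, with a UMI in 5 of 831 members, against 15.4, 25.7, 20.3 and 9.39 CPM in members of the controls. The plateau of that mouse had 3.25 CPM, and those of the controls 16.6 to 26.8. Which cells gave the RNA of the plateau was not tested. The 18 members of TDP-43 cKO mice were too few for levels, and 6 of them held a Tardbp UMI.

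NELF-B cKO replicate 1 was compared with the 4 controls over members, with edgeR's quasi-likelihood test. Of 12228 genes 0 were called in either direction (0%), with 84 higher and 93 lower at an unadjusted p under 0.05. DESeq2 also called 0 genes, with 45 and 70. With 1 cKO mouse, the spread is that of the controls, and a count of 0 does not show that no gene changed.

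The result depended on control replicate 2. Without it Cdk8, Lars2, Hist1h2aa and 1700016K05Rik were called higher in NELF-B cKO replicate 1, and are named here for that reason. Lars2 (log2 fold change 1.40) held 447 CPM in members of the cKO mouse and 171, 173 and 167 CPM in control replicates 1, 3 and 4. In the left-out control replicate 2 it stood higher still, at 478 CPM. Cdk8, a kinase of the Mediator complex, held 1136 CPM in members of the cKO mouse against 284, 631, 334 and 276 CPM in the controls, and the plateaus held 1598 CPM and 375, 851, 513 and 640 CPM (log2 fold change 1.95 ± 0.13 SE, adjusted p = 1.73e-05, edgeR). For Cdk8 the plateau of the cKO mouse was thus also above those of all 4 controls, though plateaus were not fitted. Of the somatic lists, Leydig genes had a median log2 fold change of 2.78 in the cKO members (6 tested), red blood cell genes of 2.40 (3 tested), stromal, myoid and endothelial genes of 1.38 (2 tested) and immune genes of 3.40 (1 tested), and 0 were called. Leydig genes summed to 1.51 UMIs per 10,000 in these members against 0.0587 to 0.348 in the controls, and to 2.98 against 0.304 to 0.496 in the plateaus. Sertoli genes, with a median log2 fold change of -0.94 in the cKO members beside -0.06 over all genes, were not called. They were lower in its plateau too, at 9.34 UMIs per 10,000 against 12.6 to 38.9.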

How the data were processed

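Droplet 3′ libraries were sequenced from whole testes of 9 mice. The deposited matrices hold raw UMI counts of 32285 genes for every barcode, with no filter on cells; the authors made them by mapping to mm10 in Cell Ranger 7.0.0 per the labels and the study's methods, while the file headers name Cell Ranger 4. No values were normalized before deposit. Groups came from the sample titles, and nothing further was stated on litters or batches.

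Members, gene lists and comparisons were chosen with earlier results of these data known. No doublet caller was run, and the authors' removal of poor clusters and of cKO germ cells that still held targeted-gene UMIs was not repeated, the latter being tried as an alternative. Positions were taken from the GRCm38 annotation. Depth per library is given with the samples, and intervals cover counting error only.

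UMIs were summed per mouse and class. edgeR 4.0.16 (quasi-likelihood, TMM, mouse as a block between classes of the same mouse, since both classes came from 1 animal) ran on R 4.3.3, and DESeq2 1.42.0 was an alternative; the scripts were tested on simulated data. Mice with under 20 members were left out of fits and levels. Shares were compared by exact permutation tests (scipy 1.17.1). Named genes were the 6 genes of the rule, the targeted genes, members of the lists, the 15 highest genes in members, the 15 with the highest ratio to barcodes of 1 to 100 UMIs, and, for the test against deeper barcodes, up to 10 called genes of largest change in each direction that moved alike in every mouse and reached 50 CPM in 1 class. Genes named by their ratio to the plateau, and the 4 called without control replicate 2, were added after their values were seen. A total of 56 alternative values were planned, and the plateau was added as a comparison after the UMI totals were seen.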

Additional observations from a re-analysis of the deposited data

Results flagged for a closer look

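In 6 of the 33 values examined over the 4 control mice, control replicate 2 lay far from the others, measured by its gap to the nearest control relative to the whole range; chance sets apart about 1 in 20 such values. Its members had a median mt- share of 1.30%, against 0.555% to 0.632% in the other controls. Its plateau held 20632 barcodes, against 57879 to 60621. Its members held 14.1 UMIs per 10,000 of the CatSper channel genes, against 5.25 to 5.88, 95.6 of the testis energy metabolism genes, against 149.9 to 160.3, 5.57 of the SG genes, against 3.02 to 3.43, and 454 of the cytosolic ribosomal protein genes, against 732 to 752. In its plateau the CatSper, SG and ribosomal protein genes stood at 14.8, 5.92 and 408.5 UMIs per 10,000. The cause was not tested.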

How the results depend on the processing

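The number of members followed the limits: 1229 under 1500 UMIs, 7524 under 2500, 8897 with at least 2 genes of the rule, 2166 with at least 4, 4977 at an mt- share under 5% and 2824 after thinning to 1000 UMIs, against 5282. The share by genotype kept its direction under every alternative run, from -16.5 to -1.91 percentage points for NELF-B cKO and -19.3 to -11.8 for TDP-43 cKO when 1 mouse was left out; none of these designs could reach a p of 0.05. Replicate numbers only name the mice, and as a block they gave -12.0 and -18.6 percentage points (exact permutation p = 0.5 and 0.25). Over members against barcodes of 1 to 100 UMIs, the median ratio of the acrosome genes was 1.04 and became 1.18 against the plateau. That of the genes of the rule, which chose the members, was 1.17. It became 1.51 against barcodes over 100 and up to 500 UMIs, 1.41 with at least 4 genes and 1.52 against the plateau.

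Against deeper barcodes, genes higher and lower (11 and 284) became 59 and 560 over every gene with a UMI, 1375 and 1312 on unthinned counts, 338 and 963 at 4000 UMIs or more and 3 and 52 in control mice only; with no replicate block they were 0 and 2, where 4933436I20Rik was the only one of the named genes to pass. At 1000 UMIs 121 were lower. Leaving out 1 mouse gave 3 to 87 higher, most without control replicate 1, and 52 to 474 lower, fewest without NELF-B cKO replicate 1. The NELF-B cKO comparison gave 0 to 4 higher, 4 without control replicate 2; a replicate block could not be fitted there. Depth limited members to under 2000 UMIs each, so genes of a few CPM could not be read per barcode.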

Other observations

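Nuclear-retained RNAs (Malat1, Neat1, Kcnq1ot1 and Meg3) summed to 28.6 UMIs per 10,000 in members of control replicate 2 and to 7.55 to 12.2 in members of the other 3 controls. In the plateau they stood at 28.0 in control replicate 2 and at 10.2 to 15.7 in the others. Among marker-positive barcodes of at least 4000 UMIs the 4 controls held 7.28 to 10.6.

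Stress response genes such as Fos, Jun and Hspa1a were at 4.57 to 8.49 UMIs per 10,000 in members of the controls and 4.68 to 7.06 in the plateau. None of the 5 tested was called against the deeper barcodes.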
